A study of Mus musculus with 12 samples.

Results

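The guanylate-binding protein (GBP) family was described here as the 10 mouse genes with the symbols Gbp2, Gbp3, Gbp4, Gbp5, Gbp6, Gbp7, Gbp8, Gbp9, Gbp10 and Gbp11. Members were matched by exact symbol among the 55536 annotated genes of the study, and all 10 passed the filter on low counts, which left 18995 genes. Gbp8 passed only because of its counts in the IFN-γ libraries. The other 9 members also passed when the libraries without IFN-γ were filtered alone.

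The data were bulk RNA-seq of primary mouse oligodendrocyte precursor cells (OPCs), the progenitors of myelinating oligodendrocytes, labelled as Sox10GFP+ and taken from pup brains at P4-P6. All cultures were grown in proliferation medium, with PDGFaa at 10 ng/ml and bFGF at 20 ng/ml by the labels. The paper's methods give higher concentrations of both. Ctr cultures received neither agent, and EZH2i cultures received the EZH2 inhibitor EPZ011989 at 1.5 µM for 4 days, renewed every 48 h. IFN-γ cultures received IFN-γ at 100 ng/ml for 6 h, and the fourth group received the 4 days of EZH2i followed by IFN-γ for 6 h together with fresh inhibitor. Each group had 3 libraries from different litters, and several brains were pooled for each culture. The labels name 0 µM inhibitor, but no vehicle, for the groups without EZH2i. They also give EAE (experimental autoimmune encephalomyelitis) as the mouse model for every sample, although the stated source was pup brain. The protocol allows either sorting of Sox10GFP+ cells or CD140a beads as the isolation method.

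GBPs are large GTPases of the dynamin superfamily that interferons induce in many cell types. They are best known from infected macrophages, where they assemble on the membranes of intracellular pathogens and pathogen vacuoles, help to disrupt these membranes and give inflammasomes access to microbial ligands. Some members, among them GBP2 and GBP5, carry a C-terminal motif for prenylation, a lipid anchor that holds them on membranes. IFN-γ signals through its receptor and JAK kinases to promoters with GAS elements, and among its targets is IRF1, a transcription factor that binds ISRE elements. GBP genes are classical targets of this pathway. EZH2 is the catalytic subunit of polycomb repressive complex 2, which places the repressive H3K27me3 mark on histone H3.

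The members lie in 2 clusters in the GRCm38 assembly. Gbp5, Gbp7, Gbp3 and Gbp2 follow each other on the plus strand of chromosome 3, from 142493978 to 142638008. Gbp8, Gbp9, Gbp4, Gbp10, Gbp6 and Gbp11 follow each other on the minus strand of chromosome 5, from 105014150 to 105346472. Gbp11 is annotated as a polymorphic pseudogene and the other 9 members as protein coding. Gbp4, Gbp8 and Gbp9 begin at almost the same place, with 60 to 61 shared exonic bases.

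Promoter sequence from RefSeq (GRCm38.p6) was at hand for Gbp2, Gbp3, Gbp5 and Gbp7, all of the chromosome 3 cluster, and for Gbp2b. Gbp2b is a further GBP gene between Gbp3 and Gbp2 that is not among the 10 members. Windows from 250 bases before to 50 bases after the transcript start were searched on both strands for the GAS motif TTCNNNGAA and the ISRE core, which is GAAA followed after 2 free bases by GAAA again. The stretches around the matches are shown because they hold the binding motifs of the IFN-γ pathway. Capitals mark the matches, and an ISRE on the opposite strand reads as 2 blocks of TTTC here. All are written 5′ to 3′ on the plus strand, which is the genes' own strand, at chr3:142620544-142620628 for Gbp2, chr3:142559939-142560029 for Gbp3, chr3:142496684-142496905 for Gbp5, chr3:142530170-142530307 for Gbp7 and chr3:142594650-142594734 for Gbp2b.
Gbp2: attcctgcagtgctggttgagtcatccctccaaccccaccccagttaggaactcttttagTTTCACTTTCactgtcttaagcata
Gbp3: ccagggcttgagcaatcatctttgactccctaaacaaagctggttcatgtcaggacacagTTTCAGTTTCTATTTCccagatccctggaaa
Gbp5: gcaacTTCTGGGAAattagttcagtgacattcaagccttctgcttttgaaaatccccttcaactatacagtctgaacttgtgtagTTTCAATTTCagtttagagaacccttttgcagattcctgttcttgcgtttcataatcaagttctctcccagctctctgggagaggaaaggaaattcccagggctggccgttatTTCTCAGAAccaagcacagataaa
Gbp7: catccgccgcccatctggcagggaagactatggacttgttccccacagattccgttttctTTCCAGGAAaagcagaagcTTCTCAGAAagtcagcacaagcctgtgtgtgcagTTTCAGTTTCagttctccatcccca
Gbp2b: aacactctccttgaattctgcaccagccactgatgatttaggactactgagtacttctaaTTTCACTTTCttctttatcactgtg

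The ISRE core lay on the opposite strand in all 4 of these members and in Gbp2b. Counted from the RefSeq transcript start, it began at -59 in Gbp2, -53 in Gbp7, -165 in Gbp5 and -137 in Gbp2b, and Gbp3 had 2 overlapping matches that began at -45 and -39. The GENCODE genes used for the counts can start elsewhere. Gbp2 starts there at 142620602, so its match from 142620604 lies inside the gene, and Gbp5 starts at 142493978, before its whole window. A second annotated start of Gbp3 had no match of either motif upstream. GAS matches were found in Gbp5, at -245 and -52, and in Gbp7, at -106 and -87. Among 32851 RefSeq promoter windows of the same length, 8.3% held a GAS match, 3.44% an ISRE match and 0.454% both.

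Without IFN-γ the family was expressed at a low level in OPCs. TPM values, which are read counts scaled by transcript length and library size and so can be compared between genes, summed over the 10 members to 7.18, 11.3 and 16.4 in the Ctr libraries. This gives a mean of 11.7 ± 4.64 TPM (SD, n = 3). The EZH2i libraries had 12.3 ± 1.69 TPM (SD, n = 3), between 10.7 and 14.1, within the range of Ctr. Gbp3 was the most abundant member in Ctr, at 3.62, 5.83 and 10.3 TPM, and held 50.5% to 62.4% of the family sum. Gbp2 followed, at 1.74, 2.94 and 2.56 TPM, without overlap with Gbp3. Gbp7, at 0.559 to 1.61 TPM, and Gbp6, at 0.676 to 1.04 TPM, overlapped each other. Gbp4, Gbp11, Gbp10, Gbp9 and Gbp5 had means of 0.305 to 0.0573 TPM, in this order, and each overlapped the next. Gbp8 had 0, 0 and 1 counts in Ctr and 0, 1 and 1 in EZH2i, which is within the floor of 3 counts per library that a count of 0 allows. The order of the first 6 members was the same with EZH2i. Among 22028 protein-coding genes ranked by TPM in each library, Gbp2 stood between 9718 and 10287 in Ctr.

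**Figure D1:**
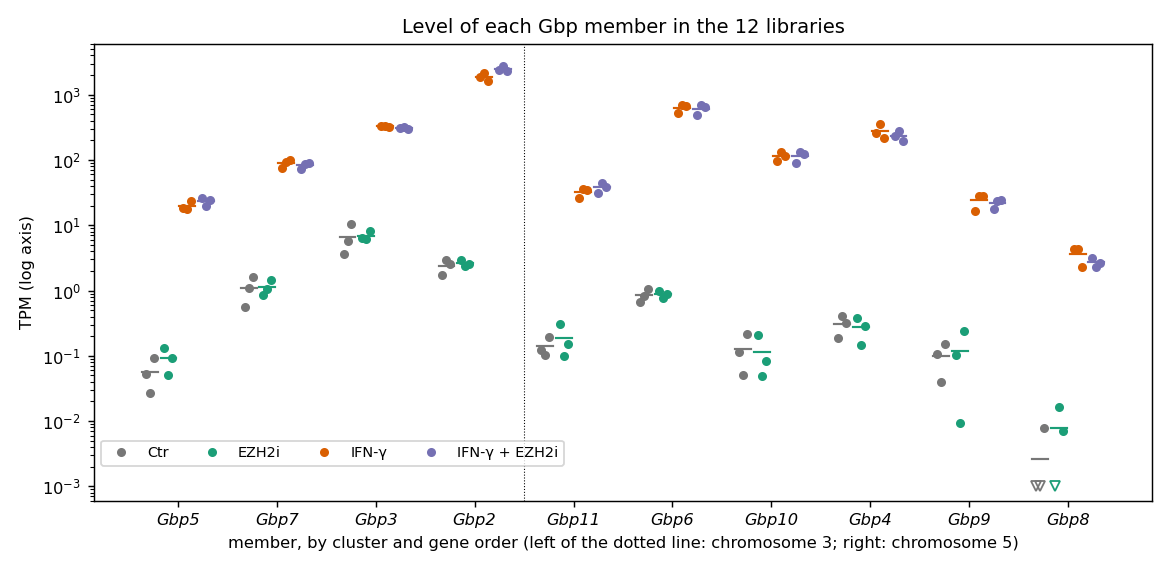
TPM of each member in the 12 libraries on a log axis, with 1 point per library, a short line at the mean of 3 libraries, and colours for the 4 groups. Open triangles at the lower edge are libraries in which Gbp8 was listed at 0 TPM, and every member's IFN-γ libraries, with or without EZH2i, lie above all of its libraries without IFN-γ.

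With IFN-γ the family sum rose to 3219, 3874 and 3144 TPM, or 3412 ± 401 TPM (SD, n = 3), which is 293 times the Ctr mean. The family then held 0.314% to 0.387% of all transcripts by TPM. Gbp2 became the most abundant member, at 1852, 2175 and 1641 TPM, followed by Gbp6 at 529, 694 and 663 TPM. Gbp3, at 338, 329 and 319 TPM, and Gbp4, at 263, 362 and 217 TPM, overlapped each other. The next in order were Gbp10, at 96.8, 132 and 116 TPM, and Gbp7, at 75.8, 94.7 and 99.9 TPM, which also overlapped. Gbp11, Gbp9 and Gbp5 had means of 32.7, 24 and 19.9 TPM, each overlapping the next, and Gbp8 remained lowest at 4.3, 4.31 and 2.31 TPM. Gbp2 stood between rank 4 and rank 9 of all protein-coding genes in these libraries, and Gbp6 between 43 and 56.

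Because the members rose by different factors, the make-up of the pool differed with IFN-γ. Gbp2 held 15.5% to 25.9% of the family sum in Ctr and 52.2% to 57.5% with IFN-γ. Gbp6 held 6.31% to 9.42% in Ctr and 16.4% to 21.1% with IFN-γ. The share of Gbp3 was 8.49% to 10.5% with IFN-γ, below all Ctr libraries. The 4 members of the chromosome 3 cluster together held 83.2% to 88.3% of the sum in Ctr and 66.3% to 70.9% with IFN-γ.

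**Figure D2:**
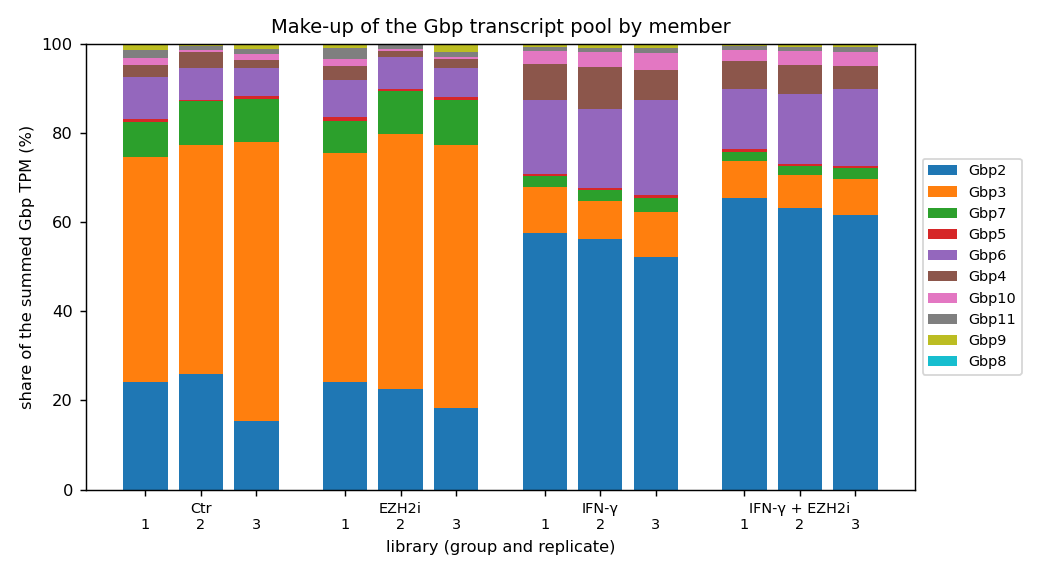
Stacked bars of the share, in percent, that each member held of the summed Gbp TPM, with 1 bar per library and libraries ordered by group and replicate. Gbp3 forms the largest part of the 6 libraries without IFN-γ, with 50.5% to 62.4% in Ctr, and Gbp2 that of the 6 libraries with IFN-γ, with 52.2% to 57.5% in IFN-γ and 61.7% to 65.4% in IFN-γ with EZH2i.

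The effect of IFN-γ was tested per gene on counts with edgeR's quasi-likelihood test, and values below are TMM-normalized CPM, which are counts relative to library size and are not scaled by gene length. Gbp8, which passed the filter only through its IFN-γ libraries, is left out of the counts and given by its reads. Of the other 9 members 9 rose with IFN-γ against Ctr (Benjamini-Hochberg adjusted p under 0.05), where 6.65% of all genes tested were called higher. In these 9 the 3 IFN-γ libraries lay above the 3 Ctr libraries, which 13.5% of all genes tested did. Their median log2 fold change was 8.06, against 0.001 over all genes tested, and their adjusted p from edgeR ranged from 2.75e-10 to 1.54e-06.

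Gbp4, a member of the chromosome 5 cluster, had the largest change among these 9, with 0.922, 0.734 and 0.967 CPM in Ctr and 911, 971 and 785 CPM with IFN-γ. Its log2 fold change was 9.95 ± 0.25 (SE), or 989.9-fold, and 10.93 when only its protein-coding transcripts were counted. Gbp2, one of the prenylated GBPs, went from 7.91, 9.94 and 7.45 CPM to 5950.5, 5945 and 5306 CPM, a log2 fold change of 9.41 ± 0.21. Both groups were narrow beside the distance between them. Gbp10 and Gbp6, whose coding sequences are 98.4% identical, had log2 fold changes of 9.44 ± 0.29 and 9.32 ± 0.25. Gbp5, which promotes NLRP3 inflammasome assembly in macrophages, went from 0.319, 0.113 and 0.339 CPM to 76.5, 65.1 and 90.3 CPM, a log2 fold change of 8.06 ± 0.31. Gbp9 and Gbp11 rose by 8 ± 0.58 and 7.94 ± 0.43 on the log2 scale. Gbp9 had 5, 5 and 43 counts in Ctr, and its log2 fold change was 9.07 without Ctr replicate 3.

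Gbp7 and Gbp3 had the smallest changes. Gbp7, a member linked to host defence against intracellular bacteria, went from 5.92, 7.23 and 7.51 CPM to 451, 391 and 528 CPM, a log2 fold change of 6.05 ± 0.23. Gbp3 went from 14.8, 15.1 and 22.6 CPM to 1038, 825 and 1035 CPM, a log2 fold change of 5.78 ± 0.26, or 55-fold. In TPM, both had higher Ctr levels than Gbp4, Gbp8, Gbp9, Gbp10 and Gbp11 in every library. Gbp2 and Gbp6 did not follow this order. In Ctr, Gbp2, at 1.74 to 2.94 TPM, lay above Gbp7, at 0.559 to 1.61 TPM, and Gbp6, at 0.676 to 1.04 TPM, overlapped Gbp7. Their log2 fold changes were 9.41 and 9.32. Gbp8 had 1 count in the 3 Ctr libraries together and 352, 446 and 480 counts with IFN-γ. The ratio of its summed counts, scaled for library size, was 1014 (95% interval 182 to 40069.9, counting error only).

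**Figure D3:**
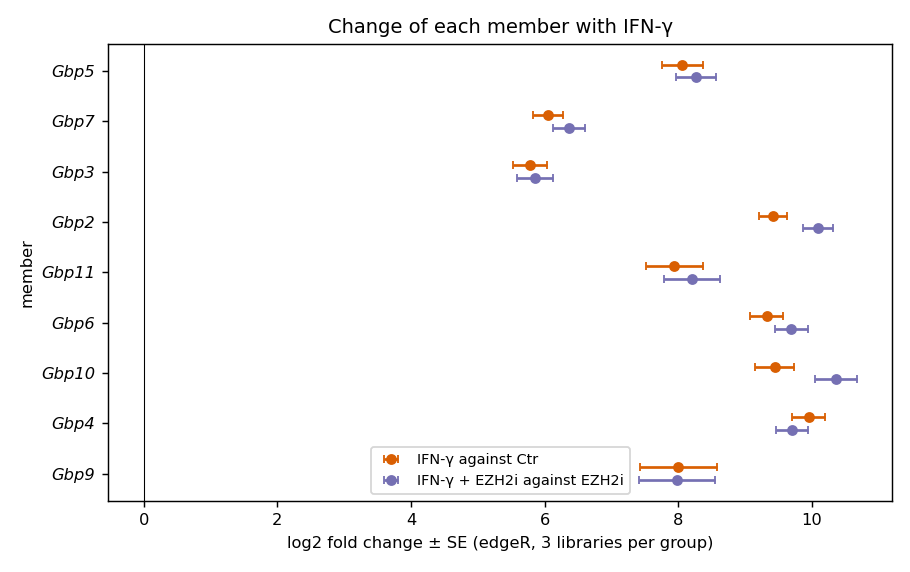
Log2 fold change with IFN-γ from edgeR for 9 members, with bars of 1 SE, against Ctr without inhibitor and against EZH2i with inhibitor. Gbp8 is left out because its fitted value rests on 1 and 2 counts in the groups without IFN-γ, and Gbp3 and Gbp7 lie lowest in both comparisons.

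IFN-γ was also compared with its own background in the presence of the inhibitor. Of the 9 members other than Gbp8, 9 rose in IFN-γ with EZH2i against EZH2i, where 5.9% of all genes tested were called higher, and the 3 libraries lay above in all 9, as in 11.8% of all genes tested. Their log2 fold changes ranged from 5.85 ± 0.27 for Gbp3 to 10.36 ± 0.31 for Gbp10, with a median of 8.27. Gbp2 rose by 10.09 ± 0.22, from 8.44, 6.74 and 7.64 CPM to 7695, 8614 and 8506 CPM. Gbp10 rose from 0.322, 0.192 and 0.334 CPM to 321, 379.8 and 443 CPM, from 9, 7 and 22 counts in the EZH2i libraries. Summed with Gbp6, with which it shares reads, the log2 fold change was 9.76. For Gbp8 the ratio of summed counts was 538 (95% interval 148 to 4449.9), from 2 counts to 797. With EZH2i the family sum reached 3662, 4344 and 3793 TPM with IFN-γ, or 3933 ± 362 TPM (SD, n = 3), 319 times the EZH2i mean.

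The inhibitor by itself was compared with Ctr to ask whether blocking EZH2 changed the family in unstimulated OPCs. The edgeR test called 0 of the 9 members other than Gbp8, where 0.405% of all genes tested were called, and DESeq2 called 0 as well. Gbp8, with 1 count in the Ctr libraries together and 2 in the EZH2i libraries, could not be called and is left out. At an unadjusted p under 0.05, 1 member passed in edgeR, where 7.04% of all genes tested did, and 2 passed with the replicate block, where 18.5% did. The range of log2 fold changes without Gbp8 was -0.77 to 0.13. The member past the unadjusted threshold without the block was Gbp10, at 0.426, 0.226 and 0.662 CPM in Ctr and 0.322, 0.192 and 0.334 CPM with EZH2i (log2 fold change -0.77 ± 0.33, adjusted p = 0.662), and its groups overlapped. Gbp6, with a log2 fold change of -0.28 ± 0.18, was the 1 member whose EZH2i libraries, at 2.58 to 3.82 CPM, lay below those of Ctr, at 3.84 to 4.18 CPM, as 5.34% of all genes tested did.

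In the presence of IFN-γ, Gbp2 had the largest log2 fold change with EZH2i. It had 5950.5, 5945 and 5306 CPM with IFN-γ and 7695, 8614 and 8506 CPM with IFN-γ and EZH2i, so all 3 libraries with the inhibitor lay above, as in 6.08% of all genes tested. The log2 fold change was 0.53 ± 0.15, or 1.44-fold, with an adjusted p of 0.26 in edgeR without pairing. Over the alternatives the adjusted p ranged from 0.00596 to 0.709. Same-numbered libraries of these 2 groups deviated together. A paired fit in edgeR (replicate block over all 12 libraries, Ctr included) gave 0.53 ± 0.12 and an adjusted p of 0.0274. This fit called 3.11% of all genes tested higher. DESeq2 without pairing gave an adjusted p of 0.00596 and called 1.34% of all genes tested higher. On the TPM scale Gbp2 had 2394, 2746 and 2339.7 with both agents against 1852, 2175 and 1641, and its share of the family, 61.7% to 65.4%, lay above the 52.2% to 57.5% seen with IFN-γ. The 9 other members together summed to 1368, 1698 and 1503 TPM with IFN-γ and to 1268, 1598 and 1453 TPM with IFN-γ and EZH2i. The groups overlapped, and in each of the 3 numbered pairs the TPM sum was lower with the inhibitor, a difference that was not tested. This direction did not hold in CPM, where the sum of these 9 was lower in replicate 1 and higher in replicates 2 and 3. Gbp6, the largest of them, went from 2356, 2448 and 2890.4 CPM to 2211, 2804 and 3197 CPM. The sum of neuronal markers, at low levels, also moved with the inhibitor. For 6 such genes it was 18.1 to 30 CPM in IFN-γ libraries and 34.9 to 62.6 CPM with both agents. Gad1 had no common direction, with 7.14, 2.77 and 1.59 CPM against 4.1, 2.74 and 2.63 CPM. The other neuronal markers were higher with both agents in each numbered pair. Sums of 6 astrocyte markers, 644 to 1625 CPM and 1029.5 to 2137 CPM, overlapped between these groups. In each numbered pair the astrocyte sum was higher with both agents than with IFN-γ. Among these markers, Gfap went from 121, 101 and 338 CPM to 264, 238 and 599.9 CPM in replicates 1 to 3. Aldh1l1 went from 36.7, 27.6 and 66.4 CPM to 42, 21 and 55.7 CPM. The part of these genes, or of cells that express them, in the Gbp2 result was not tested.

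Without the block 0 of 10 members were called in this comparison, where 0.353% of all genes tested were, and 1 member, Gbp2, passed an unadjusted p under 0.05, as 6.42% of all genes tested did. With the block 2 members passed this unadjusted threshold, where 17.3% of all genes tested did. Groups of the other 9 members overlapped, with log2 fold changes from -0.33 to 0.32. Gbp5, at 76.5, 65.1 and 90.3 CPM without the inhibitor and 99.7, 78.7 and 112 CPM with it, had a log2 fold change of 0.32 ± 0.2 and an adjusted p of 0.953 in edgeR, or 0.0651 with the replicate block. Gbp11 had 0.32 ± 0.29. Gbp3, Gbp6, Gbp7, Gbp9 and Gbp10 lay between -0.02 and 0.15, and Gbp4 and Gbp8 had -0.12 ± 0.16 and -0.33 ± 0.26.

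**Figure D4:**
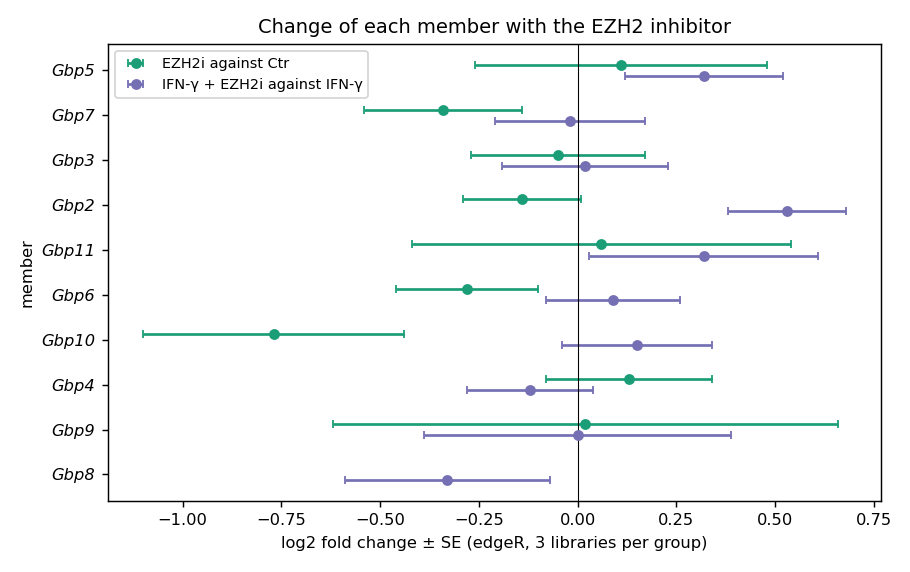
Log2 fold change with the EZH2 inhibitor from edgeR, with bars of 1 SE, for EZH2i against Ctr and for IFN-γ with EZH2i against IFN-γ. Gbp8 has no value in the former, where both groups lie at or under the floor of 3 counts per library, and in the latter Gbp2, at 0.53 ± 0.15, lies farthest from 0.

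Whether the effect of IFN-γ differed with the inhibitor was tested as the interaction of the 2 treatments. None of the 10 members passed (0 of 10) and 0 of 18995 genes did by edgeR, with 127 genes (0.669%) at an unadjusted p under 0.05. DESeq2 and the fit with the replicate block also called 0 members, and with the block 2 members passed the unadjusted threshold, where 2.87% of all genes tested did. The 2 members past the unadjusted threshold without the block were Gbp2, with a difference of log2 fold changes of 0.67 ± 0.21 (adjusted p = 0.9999), and Gbp10, with 0.92 ± 0.38 (adjusted p = 0.9999).

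Members differed in how much of their sequence was their own, which limits how Salmon can divide reads among them. Of the 31-base words of its transcripts, Gbp10 shared 85% with other members, 80.8% with Gbp6 alone, and Gbp6 shared 57.6% with other members. Gbp11 shared 34.3%, Gbp8 31.1%, Gbp9 18.3%, Gbp4 13.5%, Gbp3 5.64%, Gbp7 3.69%, Gbp2 0.239% and Gbp5 0.0299%. The split of reads between Gbp6 and Gbp10 is therefore uncertain, while the values of Gbp2 and Gbp5 rest almost wholly on their own sequence within the family. An annotated gene that spans both, Gm43302, also held 67.8% of the words of Gbp6 and 76.7% of those of Gbp10. With Gbp6 and Gbp10 summed into 1 gene, the sum had a log2 fold change of 9.35 with IFN-γ against Ctr, and 9.2 when Gm43302 was added.

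Transcript shares also differed among members. By TPM in the IFN-γ libraries, protein-coding transcripts held 99.9% to 100% of Gbp2, 100% of Gbp7 and 97.6% to 99.1% of Gbp3. They held 52.5% to 61.1% of Gbp4, 54.8% to 67.1% of Gbp5, 49.4% to 63.2% of Gbp6 and 57.4% to 68.6% of Gbp10. Most of the Gbp4 share, 36.6% to 46.9%, was a transcript of 709 bases, shorter than the coding sequence of 1893 bases. The coding transcript of 4538 bases held 7.97% to 10.5%. For Gbp4 and Gbp6 a transcript annotated for nonsense-mediated decay, the pathway that removes messages with early stop codons, held 36.4% to 44.8% and 30.4% to 46.7%. Reads of Gbp11 fell almost wholly on its polymorphic pseudogene transcript, with at most 0.0635% on the annotated coding one in IFN-γ and at most 9.48% in IFN-γ with EZH2i. These shares are Salmon's estimates and were not tested between groups.

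The clusters also held genes that are no members, annotated between the outermost members or within 200 kb of them. On chromosome 3, 5 of 12 such genes were tested and 3 were called higher with IFN-γ. These were Gm43802, a processed pseudogene inside Gbp7 (log2 fold change 5.58 ± 0.26) that held 10.8% of the words of Gbp7, Kyat3, an enzyme of kynurenine metabolism (2.17 ± 0.2), and Gtf2b, a general transcription factor (0.6 ± 0.13). Gtf2b was not called in IFN-γ with EZH2i against EZH2i (adjusted p = 0.0567 in edgeR). Pdlim5 and Pkn2 at the outer ends had 0.03 ± 0.1 and 0.14 ± 0.14. On chromosome 5, 5 of 12 were tested and 2 were called higher, Gm43302 (8.56 ± 0.74) and Lrrc8b, a subunit of volume-regulated anion channels (0.72 ± 0.17). Zfp951, Gm26519 and Lrrc8c, with 0.73 ± 0.33, 1 ± 0.73 and 0.61 ± 0.25, were not called.

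Gbp2b, which lies between Gbp3 and Gbp2, had 0 counts in all 6 libraries without IFN-γ. It had 2, 0 and 2 counts with IFN-γ and 1, 1 and 4 with both agents, in libraries where its neighbour Gbp2 had 177578 to 343942 counts. These values are at or near the floor of 3 counts per library. Its promoter window holds an ISRE match with the same letters as that of Gbp2, TTTCACTTTC.

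**Figure D5:**
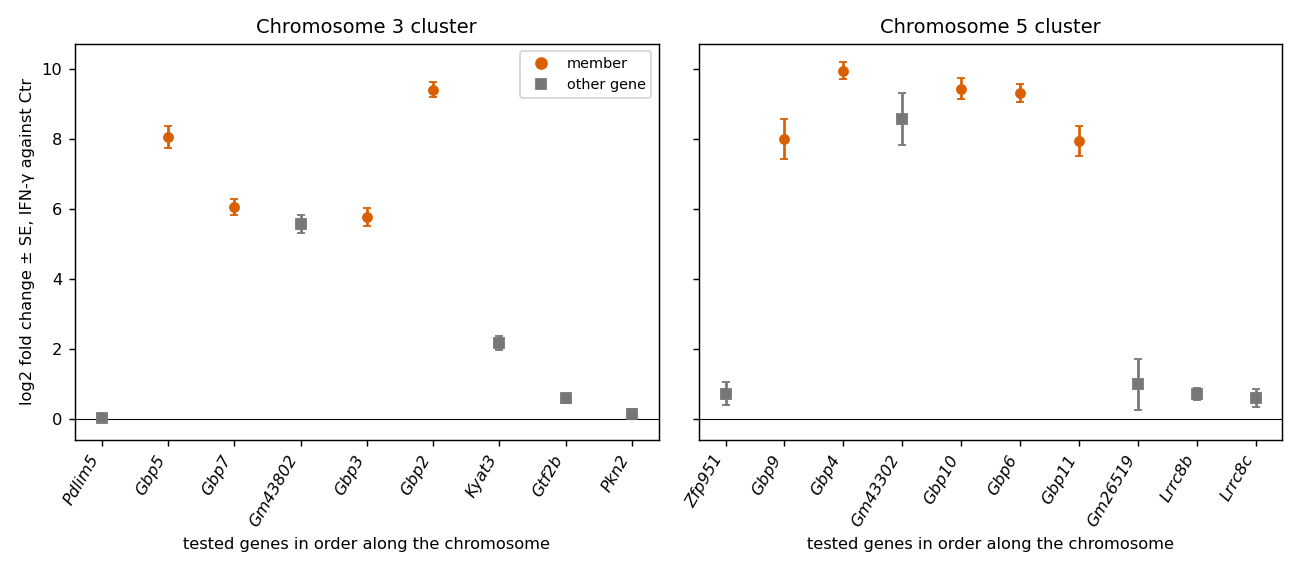
Log2 fold change with IFN-γ against Ctr, with bars of 1 SE, for the tested genes of each cluster and its flanks in their order along the chromosome, members as orange circles and other genes as grey squares. Gbp8 is left out because its fitted value rests on 1 count in Ctr. Members lie at 5.78 and above, and the flanking genes other than the 2 that share words with members lie at 2.17 and below.

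The pathway that leads to GBP induction was given by a list of 17 genes of IFN-γ receptor signalling, all of which were tested. With IFN-γ 13 rose and none fell (0 of 17), against 8.75% of all genes tested called in either direction, with a median log2 fold change of 2.26. Of these 13, 12 passed the filter without the IFN-γ libraries, and the other was Batf2. Irf1, the factor that binds ISRE elements, rose by 6.31 ± 0.16 from 12 ± 0.41 to 951 ± 116 CPM (SD, n = 3). Batf2, a transcription factor induced by interferons, had the largest fitted change on the list, from 0.0533 ± 0.0164 to 59.9 ± 17.4 CPM (SD, n = 3). Its fold is not given because it rests on Ctr values near 0. The smallest change was that of Pias1 (0.15 ± 0.22), a SUMO ligase, which was not called. The receptor subunits Ifngr1 and Ifngr2 had -0.17 ± 0.17 and -0.42 ± 0.23. In EZH2i against Ctr and in both agents against IFN-γ, edgeR without the block called 0 of 17. It called 0.405% and 0.353% of all genes tested.

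Of 18 other interferon-inducible GTPases listed, 11 were tested and 9 rose, where 6.65% of all genes tested were called higher. Without the IFN-γ libraries 9 of the 11 passed the filter, and 8 of these rose. Tgtp2, an immunity-related GTPase that acts with GBPs on pathogen vacuoles, had the largest change (9.73 ± 0.25) and Irgq the smallest (0.11 ± 0.16), which was not called. None of the 11 was called for the inhibitor in either comparison (0 of 11 by edgeR without the block in each). Over all genes tested 0.405% and 0.353% were called.

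Genes whose products modify or act with GBPs mostly did not pass the test, and the counts of their lists stand beside the 6.65% of all genes tested that were called higher. Of the 5 genes of prenylation, which anchors GBPs to membranes, 0 were called by edgeR with IFN-γ, from -0.25 ± 0.12 for Fnta, a farnesyltransferase subunit, to 0.03 ± 0.14 for Icmt. Of a list of 14 genes made for ATG8 conjugation, the machinery that loads GBPs on vacuoles, 2 rose. These were Trim21 (4.54 ± 0.18), a ubiquitin ligase that is not itself part of this conjugation, and Atg16l1 (0.37 ± 0.1). Atg16l1 was not called in IFN-γ with EZH2i against EZH2i (0.15 ± 0.1, adjusted p = 0.54 in edgeR). The smallest change was that of Atg12, near 0 at 44.8 CPM in both groups. Of 10 genes of inflammasomes, 7 were tested and 3 rose, all at low levels, and of the 5 that passed the filter without the IFN-γ libraries 1 rose, Casp1. Casp4, the sensor of cytosolic lipopolysaccharide, went from 0.0489 to 4.1 CPM, and Gsdmd, the pore-forming protein, from 0.0565 to 4.08 CPM. Folds of Casp4 and Gsdmd are not given because they rest on Ctr values near 0. Casp1 went from 0.576 to 4.88 CPM (3.08 ± 0.52), while Ninj1 had 0.02 ± 0.2. Of 11 genes of polycomb repressive complex 2, 1 rose, a share near that of all genes tested, and this was Aebp2 (0.72 ± 0.2). Ezh2, the target of the inhibitor, had -0.08 ± 0.16. For the inhibitor, edgeR without the block called 0 genes of these 4 lists in either comparison. Over all genes tested 0.405% and 0.353% were called.

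The genes whose profile was most like that of the family were found by Pearson's r between log2 CPM of a gene and log2 of the summed member CPM over the 12 libraries, among 14671 other genes with a mean of at least 1 CPM. Among the closest were Tgtp2 (r = 0.9993) and Irgm2, Parp14 and Tgtp1 (r = 0.9992 each). The 12 points fall into 2 clusters, without and with IFN-γ, so r describes this step. Levels of Irgm2, a regulator among the immunity-related GTPases, went from 0.9 ± 0.23 CPM in Ctr to 610.3 ± 52.4 CPM in IFN-γ libraries, and reached 702 ± 61.2 CPM when EZH2i was present too (SD, n = 3). Parp14, an ADP-ribosyltransferase, had 1.8 ± 0.165, 755 ± 117 and 821 ± 177 CPM.

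Markers of other cells were checked because macrophages and microglia express GBPs with IFN-γ. In bulk RNA, fewer cells of a type and less RNA per cell cannot be told apart. The 11 microglia and macrophage markers summed to 2.19 to 2.71 CPM in Ctr, 2.2 to 3.07 in EZH2i, 3.14 to 4.52 with IFN-γ and 2.52 to 3.45 with both agents. The sums with IFN-γ lay above those of Ctr. Cd68, at 0.896 to 2.78 CPM, and P2ry12, at 0.39 to 1.34 CPM, were present in every library and made up most of the sum. C1qa was at 0 in all 12 libraries, and Aif1 and Cx3cr1 were at or under 0.0608 and 0.213 CPM. Endothelial markers summed to 4.7 to 5.74 CPM in Ctr and 15.1 to 16 CPM with IFN-γ, and this step was that of Ly6c1, from at most 0.0565 CPM in Ctr to 8.76 to 11.2 CPM. T cell markers summed to at most 0.506 CPM. The 8 OPC markers were present in all libraries, with sums of 8145 to 8443 CPM in Ctr, 6723 to 7147 in EZH2i, 5345 to 7316 with IFN-γ and 4327 to 5309.6 with both agents. Sums of 6 oligodendrocyte markers were 1471 to 1839 CPM in Ctr, 808 to 1287 in EZH2i, 1393 to 1611 with IFN-γ and 781 to 1272 with both agents, so both groups with the inhibitor lay below both groups without it. Neuronal markers summed to 16.1 to 19.4 CPM in Ctr, 31 to 49.4 in EZH2i, 18.1 to 30 with IFN-γ and 34.9 to 62.6 with both agents, so the groups with the inhibitor lay above. Astrocyte markers summed to 810.4 to 1432 CPM in Ctr, 1112 to 2037 in EZH2i, 644 to 1625 with IFN-γ and 1029.5 to 2137 with both agents, which overlapped. Between same-numbered libraries the astrocyte sum was always higher with the inhibitor, both without and with IFN-γ. Pericyte and fibroblast markers summed to 1.41 to 2.36 CPM in Ctr, 2.66 to 3.79 in EZH2i, 3.01 to 4.64 with IFN-γ and 3.53 to 4.32 with both agents. The part of these cells in the Gbp values was not tested.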

How the data were processed

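RNA-seq libraries were stranded total RNA libraries read as pairs on an Illumina NovaSeq. Reads were trimmed by the authors before quantification with Salmon 0.8.2, per the labels and methods. The strand setting is not given in the sources used here. The authors deposited for each transcript an estimated count, which is not normalized, and a TPM value scaled by effective transcript length to the same sum in every library. Tables of the authors' own DESeq2 comparisons (fold changes and p-values) were not used.

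Estimated counts of all 141862 transcripts were summed per gene in GENCODE M21 (GRCm38) and rounded. Library totals ranged from 17403893 to 66546052 with a median of 33625908, and intervals cover counting error only. Analyses were run in R 4.3.3 with edgeR 4.0.16 (TMM factors, default filter on low counts, quasi-likelihood test) in one fit of 12 libraries with group as the only term, with 5 contrasts and Benjamini-Hochberg adjustment over 18995 genes. The fit was tested on simulated data. The tests of the members and the counts over all genes were recomputed in other ways. These were DESeq2 1.42.0, no filter, RLE factors, a replicate block, only the samples compared, length-scaled TPM and a fold change threshold. Each library was also left out in turn, and 3 ways were chosen after seeing the data. The interaction, which uses all 12 libraries, was not run with only the samples compared. Values of the gene lists, cluster neighbours and closest profiles come from the main fit only.

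The labels number the replicates and give different litters. Same-numbered libraries deviated together in all 3 pairs of IFN-γ and IFN-γ with EZH2i (r from 0.493 to 0.642) and of EZH2i and IFN-γ with EZH2i (0.496 to 0.621), so these were taken as paired. Pairs with Ctr were not, because r was 0.0134 to 0.0854 in replicate 2, although it was 0.411 to 0.544 in replicates 1 and 3. The fit with the replicate block still covered all 12 libraries and so paired Ctr too. Only that fit used the pairing. The main fit had no term for it, so its SEs, adjusted p and calls, also on the gene lists, are unpaired.

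Members, gene lists and the rule for named genes were chosen with earlier results of these data known. The rule names all members, Irf1, the list genes with the largest and smallest absolute change with IFN-γ against Ctr, the genes of the 2 clusters and their flanks, and the 5 closest profiles, and 1 gene that it picks is not reported here. Other genes named are Ifngr1, Ifngr2, Gsdmd, Casp1, Atg16l1 and the markers, which were chosen after their values were seen. Motifs were searched in RefSeq windows of GRCm38.p6.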

Additional observations from a re-analysis of the deposited data

How the results depend on the processing

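The counts of called members with IFN-γ against Ctr and against EZH2i kept every tested member under all alternatives run, and the leave-one-out fits gave 10 to 10 in both. For EZH2i against Ctr and the interaction the counts stayed at 0 to 0. All these counts include Gbp8, which passed the filter only through its IFN-γ libraries and adds no support to them. For IFN-γ with EZH2i against IFN-γ the leave-one-out counts were 0 to 0, and DESeq2 and the replicate block each gave 1, Gbp2. The block changed no other call of a member. In the fits on protein-coding transcripts only, Gbp11 was not tested. Summing members of at least 95% protein identity was not run. Counts over all genes moved by over 1.5 times in these cases. For IFN-γ with EZH2i against IFN-γ, 67 became 281 with DESeq2, 748 with the block, 7 with only the samples compared and 34 with length-scaled TPM. For EZH2i against Ctr, 77 became 331 with DESeq2, 771 with the block, 121 without the filter, 33 with only the samples compared and 49 with length-scaled TPM. For IFN-γ against Ctr 1663 became 4032 with the block and 1052 with the fold change threshold, and for IFN-γ with EZH2i against EZH2i 1533 became 3661 with the block and also fell by over 1.5 times with the threshold. Leaving out 1 library gave 11 (without Ctr replicate 3) to 83 genes for EZH2i against Ctr and 10 (without IFN-γ replicate 2) to 65 for IFN-γ with EZH2i against IFN-γ.

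Directions of uncalled members near 0 were not stable, and the cause was not tested. For EZH2i against Ctr, length-scaled TPM gave Gbp4 -0.4 and Gbp11 -0.06, and protein-coding transcripts gave Gbp5 -0.86 and Gbp9 -0.65. For IFN-γ with EZH2i against IFN-γ, length-scaled TPM gave Gbp7 0.01, protein-coding transcripts gave Gbp9 0.03, and DESeq2, RLE factors and the block gave Gbp9 0.0. For the interaction, length-scaled TPM gave Gbp4 0.29 and protein-coding transcripts gave Gbp9 0.68. Leaving out 1 library in turn gave these ranges that cross 0. For EZH2i against Ctr they were Gbp3 -0.31 to 0.19, Gbp4 -0.06 to 0.33, Gbp5 -0.11 to 0.39, Gbp9 -0.6 to 1.08 and Gbp11 -0.59 to 0.41. For IFN-γ with EZH2i against IFN-γ they were Gbp3 -0.08 to 0.08, Gbp6 -0.04 to 0.22, Gbp7 -0.17 to 0.09 and Gbp9 -0.18 to 0.18. For the interaction they were Gbp3 -0.17 to 0.33, Gbp5 -0.07 to 0.43, Gbp9 -1.09 to 0.59 and Gbp11 -0.09 to 0.91. Counts per kilobase of the longest transcript in place of TPM put the share of Gbp2 at 26.2% in EZH2i, 61.5% with IFN-γ and 69% with both agents, and left Gbp3 first in Ctr and Gbp2 first with IFN-γ.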
